A study of Homo sapiens with 4 samples.

Results

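Human mitochondrial DNA carries 22 tRNA genes, and 6 of them lie on its plus strand ahead of MT-CO1, the gene of a core subunit of cytochrome c oxidase. They are MT-TF, MT-TV, MT-TL1, MT-TI, MT-TM and MT-TW, and they were taken as all rows of the count table on the mitochondrial chromosome, plus strand, with a length under 100 bases and a start below position 5900. These were 6 of 62700 genes in the table. The RNA came from HEK293T, an established line of human embryonic kidney origin that the labels call a stable clone derivative. All cells carried CMV-V5-MITO-PRADA, a V5-tagged construct for proximity labelling under the genotype label's CMV name and directed to the mitochondrial matrix. All cells also received 100 µM s4U (4-thiouridine, a uridine analogue built into new RNA) for 5 h, followed by 0.5 mM alkyne phenol for 30 min with s4U still present. For the 2 labelled libraries 10 mM D-amino acid was then added for 30 min, which starts the labelling reaction, and for the 2 unlabelled libraries it was left out. The design text states that labelled RNA was enriched. Each library bears a biological replicate number in its title, but how the cultures were kept apart is not stated, and p-values therefore measure only library-to-library spread, which may be technical.

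Both strands of the mitochondrial chromosome are copied into long RNAs that hold many genes. In the accepted scheme, called tRNA punctuation, tRNAs fold within the long RNA, mitochondrial RNase P cuts at their 5′ ends and ELAC2 cuts at their 3′ ends, and the rRNAs and mRNAs between them are thereby set free. MT-TF (phenylalanine), MT-TV (valine) and MT-TL1 (the leucine tRNA that reads UUR codons) flank the rRNA genes. MT-TI (isoleucine) and MT-TM (methionine, which also serves initiation) lie between MT-ND1 and MT-ND2, and MT-TW (tryptophan) follows MT-ND2. Both of these mRNAs encode subunits of complex I of the respiratory chain.

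The sequences of the 6 genes are shown because their short length, their ends and their bases bear on how fragments were counted and where s4U can enter. They come from the GENCODE 29 transcripts (GRCh38), run 5′ to 3′ in DNA letters, and have the anticodon in capitals. The anticodon was found as the middle of a loop of 7 bases between strands that pair.
MT-TF: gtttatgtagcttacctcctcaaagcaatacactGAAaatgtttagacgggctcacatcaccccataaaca
MT-TV: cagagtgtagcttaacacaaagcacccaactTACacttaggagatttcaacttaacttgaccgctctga
MT-TL1: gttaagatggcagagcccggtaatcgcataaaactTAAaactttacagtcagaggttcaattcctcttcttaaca
MT-TI: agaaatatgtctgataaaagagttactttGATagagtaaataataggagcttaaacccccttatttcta
MT-TM: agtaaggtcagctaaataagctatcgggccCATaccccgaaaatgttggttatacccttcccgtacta
MT-TW: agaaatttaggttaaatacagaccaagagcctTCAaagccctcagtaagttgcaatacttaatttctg

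On GRCh38 chromosome M the genes span 577 to 647 (MT-TF), 1602 to 1670 (MT-TV), 3230 to 3304 (MT-TL1), 4263 to 4331 (MT-TI), 4402 to 4469 (MT-TM) and 5512 to 5579 (MT-TW), each as 1 exon. They are 68 to 75 bases long and adjoin their neighbours almost without a gap. MT-TV has 0 unannotated bases on either side, MT-TL1 has 2 after it, MT-TM has 1 before it and MT-TW has 7 after it. MT-TF is preceded by the non-coding control region. The last 3 bases of MT-TI (4329 to 4331) are shared with MT-TQ, the glutamine tRNA of the minus strand, whose sequence shows the shared bases in capitals.
MT-TQ: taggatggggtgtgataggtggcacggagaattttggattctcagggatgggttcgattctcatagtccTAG

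Uridine, the base that s4U replaces, made up 24.6% of MT-TV, 25.0% of MT-TM, 25.4% of MT-TF, 27.9% of MT-TW, 28.0% of MT-TL1 and 31.9% of MT-TI. The other 16 mitochondrial tRNA genes held 22.03% to 37.7%, with a median of 31.2%. Over the 20 tRNA genes tested below, Spearman's rho between uridine content and log2 fold change was -0.38, a description of genes that share the same libraries. MT-TW and MT-TL1 entered the test through their labelled level, and MT-TF and MT-TV were not tested. The value of rho depends on this selection, and no conclusion on uridine content is drawn from it.

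Assigned fragments numbered 8172347 and 5771795 in unlabelled and 9380258 and 12287451 in labelled libraries, of which mitochondrial genes took 9.04% and 10.4% against 27.0% and 30.9%. Counts were unstranded, so RNA of the opposite strand adds to every gene. The share of both mitochondrial rRNAs, which adjoin 3 of the 6 tRNA genes, was 0.691% and 0.231% in unlabelled and 0.463% and 1.81% in labelled libraries, and labelled replicate 2 stood apart in it. Of the cell markers, all 7 listed for HEK293T were detected. Fibroblast and endothelial markers summed to 14.7 to 22.9 fragments per 1000000 assigned, of which COL1A1 gave 13.5 to 21.3. The blood cell markers CD3E and HBB and the fibroblast marker DCN were at 0 in all libraries, and the part of such markers in the results was not tested.

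Together the 6 tRNA genes took more of the sequenced RNA after labelling, in step with mitochondrial RNA as a whole. They held 120 and 125 fragments in unlabelled libraries against 502 and 865 after labelling. Per 1000000 assigned fragments this was 14.7 and 21.7 against 53.5 and 70.4, or 18.2 ± 4.93 and 62.0 ± 11.9 (SD, n = 2 each). The groups did not overlap and differed by 43.8, several times the spread within either. The two-sided exact permutation test gave p = 0.333, the smallest that 2 against 2 libraries allow. Per 1000000 mitochondrial fragments the values were 162 and 208 in unlabelled and 198 and 228 in labelled libraries, which overlapped (exact permutation p = 0.667). Of the fragments in all 22 tRNA genes, the 6 held 3.26% and 2.39% in unlabelled and 2.96% and 2.73% in labelled libraries, again overlapping.

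Compared per length, these were among the lowest tRNA genes. Levels are given here as CPM (fragments per 1000000, scaled by TMM, a factor that evens out differences in composition) per kb of gene, averaged over the 4 libraries. MT-TI stood at 222, MT-TM at 218, MT-TW at 98.5, MT-TL1 at 45.4, MT-TV at 37.1 and MT-TF at 10.0. These were ranks 15, 16, 19, 20, 21 and 22 of the 22 tRNA genes, whose other 16 members ranged from 119 to 8031 with a median of 903.

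The order was much the same within each group of libraries. In the unlabelled libraries MT-TM (105 ± 0.373 CPM per kb, SD, n = 2) and MT-TI (88.7 ± 57.0) did not differ beyond their spread, nor did MT-TL1 (9.22 ± 1.66), MT-TV (7.84 ± 4.90) and MT-TF (6.60 ± 2.68), and MT-TW (17.4 ± 3.70) lay between. In the labelled libraries MT-TI (355 ± 64.2) and MT-TM (331 ± 51.5) again overlapped, MT-TW followed at 180 ± 4.14, and MT-TL1 (81.7 ± 49.5) and MT-TV (66.3 ± 69.9) overlapped each other. MT-TF was lowest at 13.4 ± 9.72. Fragments that also touch a neighbouring gene can be counted for that gene or left unassigned, and how far this lowered the levels of genes this short was not tested.

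**Figure D1:**
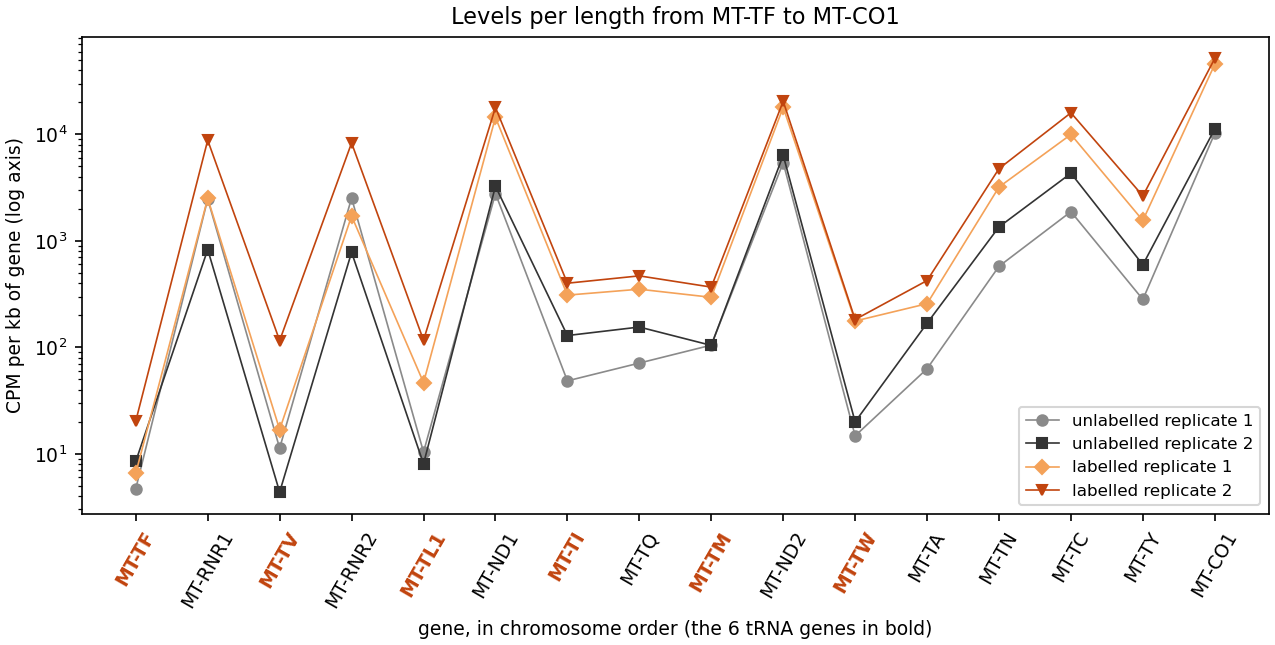
CPM per kb (log axis) of each gene from MT-TF to MT-CO1 in chromosome order, in the 2 unlabelled (grey, black) and 2 labelled (orange, red) libraries; lines join the genes of 1 library. The 6 tRNA genes (bold) lie below the rRNA and mRNA genes shown, and MT-TF is lowest, at 6.60 (unlabelled) and 13.4 (labelled) CPM per kb on average. The minus-strand tRNA genes MT-TQ and MT-TA lie near the level of MT-TI and MT-TM.

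Of the 6 tRNA genes, 4 had enough fragments to be tested. MT-TI, MT-TM, MT-TL1 and MT-TW were tested with edgeR's quasi-likelihood test, and each passed as higher at an adjusted p under 0.05, where 0.269% of the 18973 genes tested were called higher. DESeq2 called the same number higher, 4, beside 0.34% of all genes. MT-TI and MT-TM met the count filter, which asks for 2 libraries above it, in all 4 libraries. MT-TW met it in both labelled and 1 unlabelled library and MT-TL1 in the labelled libraries alone. These last genes entered the test through the group in which they were high, so that their calls, and the count of 4, are no support for a rise of the 6 genes. For MT-TF and MT-TV the filter was met in 1 labelled library only, and they were not tested. The levels of the 4 tested genes did not overlap between the groups, beside 22.2% of all genes tested that were higher in labelled libraries without overlap. For MT-TL1 and MT-TW this too follows a selection by their labelled level. Of the untested genes MT-TF overlapped. MT-TV did not, with 10 fragments in labelled replicate 1 against 7 in unlabelled replicate 1.

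For MT-TF, the first gene of the region, no difference was detectable at this depth. It had 3 and 4 unlabelled and 4 and 15 labelled fragments, which is 0.334, 0.604, 0.466 and 1.44 CPM. Labelled replicate 1 lay between the unlabelled libraries, and only labelled replicate 2 was above them. Per 1000000 assigned fragments the 95% Wilson interval ran from 0.125 to 1.08 in unlabelled replicate 1 and from 0.740 to 2.01 in labelled replicate 2. Summed over libraries the ratio of labelled to unlabelled was 1.75, with an exact 95% interval of 0.703 to 4.92 that covers counting error only, as do all intervals here.

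MT-TV, between the rRNA genes, was high in labelled replicate 2, the library with the largest rRNA share; the part of that share in the result was not tested. Its fragments numbered 7 and 2 without and 10 and 83 with labelling, at 0.780, 0.302, 1.17 and 7.98 CPM. Labelled replicate 1 lay just above the unlabelled libraries and labelled replicate 2 far above all others. The summed ratio was 6.65 (exact 95% interval 3.36 to 15.0), but 83 of the 93 labelled fragments came from labelled replicate 2. Without the filter its edgeR log2 fold change was 3.04 ± 0.45 (SE, adjusted p 1.11e-08, beside 0.461% of genes called higher in that fit), whereas a filter of 1 CPM in 2 libraries gave 3.01 ± 0.83 with an adjusted p of 0.261.

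MT-TL1, which follows the large rRNA gene and precedes MT-ND1, had more fragments in both labelled libraries. Its 7 and 4 unlabelled fragments (0.780 and 0.604 CPM) stood against 30 and 91 labelled fragments (3.50 and 8.75 CPM). Both labelled libraries were above both unlabelled ones, with labelled replicate 2 the highest. The edgeR log2 fold change was 3.12 ± 0.54 (SE, adjusted p 0.0338), for a gene tested only through its labelled level. Without labelled replicate 2 it was 2.31 and the call was lost (adjusted p 0.608).

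MT-TI, the isoleucine tRNA next to MT-ND1, also rose. It had 30 and 59 fragments in unlabelled and 183 and 287 in labelled libraries, at 3.34 and 8.90 CPM against 21.3 and 27.6 CPM. The groups did not overlap, but the unlabelled libraries differed from each other more than the labelled ones did in proportion. The log2 fold change was 2.07 ± 0.31 (SE, edgeR adjusted p 0.0117). Its size rested on the unlabelled libraries, at 2.88 without unlabelled replicate 2 and 1.50 without unlabelled replicate 1, and it passed the threshold in both cases.

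MT-TM, the methionine tRNA, gave even values within each group. Its 64 and 47 unlabelled fragments corresponded to 7.13 and 7.09 CPM, and its 172 and 260 labelled fragments to 20.1 and 25.0 CPM. Both labelled libraries were well above the unlabelled ones. The log2 fold change of 1.67 ± 0.19 (SE, edgeR adjusted p 0.00177) was the smallest of the 4 tested, and ranged from 1.51 to 1.83 when 1 library was left out.

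MT-TW, the tryptophan tRNA behind MT-ND2, had a log2 fold change at the upper end of the 20 mitochondrial tRNA genes tested. It was tested only because of its labelled level, so this place is no support for a larger rise. It had 9 fragments in each unlabelled library and 103 and 129 in the labelled libraries, at 1.00 and 1.36 CPM against 12.01 and 12.4 CPM. The libraries agreed closely within each group and lay far apart between them. The log2 fold change was 3.38 ± 0.31 (SE, edgeR adjusted p 2.80e-04), which lay within the SEs of that of MT-TL1. MT-TL1 was above it without unlabelled replicate 1 (3.39 against 3.19) and without labelled replicate 1 (3.63 against 3.42). For MT-TW the summed ratio per assigned fragment was 8.29 (exact 95% interval 5.13 to 14.2).

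**Figure D2:**
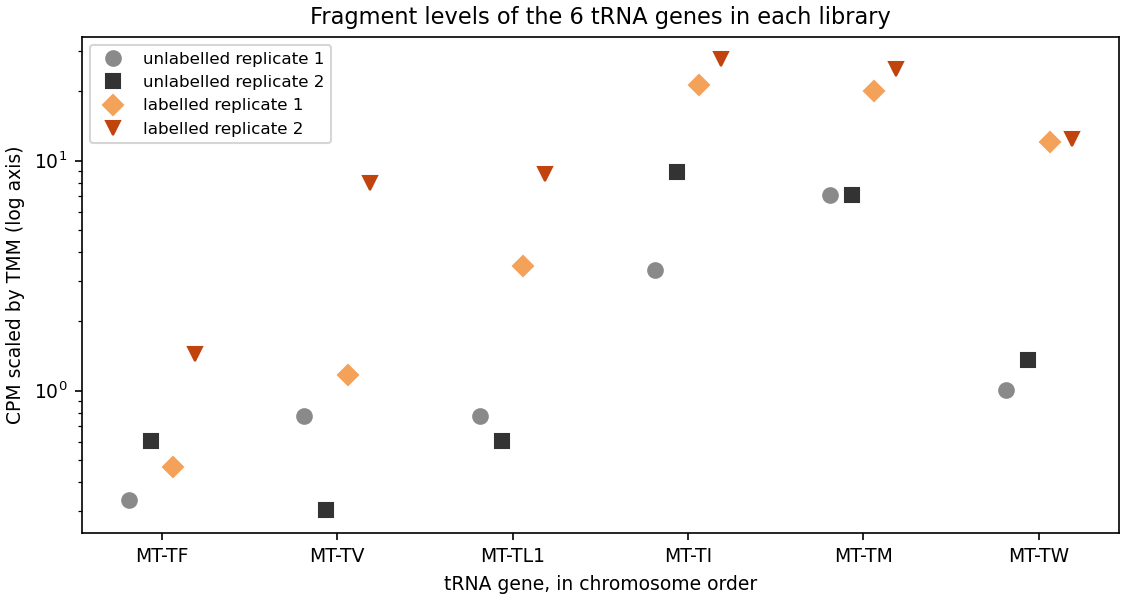
CPM scaled by TMM (log axis) of the 6 tRNA genes, 1 point per library. MT-TM and MT-TW show tight pairs within each group, MT-TF overlaps between the groups, and labelled replicate 2 lies far above the rest for MT-TV at 7.98 CPM.

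How each tRNA gene moved relative to its neighbours was asked next. Fragments per base of the tRNA gene were divided by those of each neighbour within a library, with 0.5 added to each count, which takes out the scaling of the library. It does not take out the loss of fragments left unassigned because they touch a neighbouring gene. The part of that loss in the ratios was not tested. Neighbours were the next gene on each side on either strand and the next plus-strand rRNA or mRNA gene, giving 14 pairs. With 2 against 2 libraries no pair can reach an exact permutation p below 0.333, or 0.583 after Benjamini-Hochberg adjustment over the 14 pairs here, so the pairs are described by their values.

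MT-TF stood at 0.222% and 1.15% of the density of MT-RNR1, the small rRNA, in unlabelled and at 0.295% and 0.238% in labelled libraries. The labelled values lay between the unlabelled ones, and the high value, of unlabelled replicate 2, rests on 4 fragments. MT-TV stood at 0.480% and 0.700% of MT-RNR2, the large rRNA, in unlabelled and at 1.04% and 1.40% in labelled libraries, a 2.08-fold difference (log2 1.06) without overlap. Against MT-RNR1 it stood at 0.490% and 0.660%, and at 0.708% and 1.32%.

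MT-TL1 sits between an rRNA and an mRNA, and its fragments can be set against either side. Relative to MT-RNR2 it went from 0.441% and 1.16% to 2.77% and 1.41%, a 2.77-fold difference (log2 1.47) with no overlap. The groups overlapped when 2 was added to each count (exact permutation p = 0.667), and the log2 difference was 0.77 without unlabelled replicate 1 and 2.16 without unlabelled replicate 2. Relative to MT-ND1 it was 0.401% and 0.278% in unlabelled and 0.328% and 0.656% in labelled libraries, which overlapped (1.39-fold). Without labelled replicate 2 the log2 difference from MT-ND1 was -0.02.

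MT-TI did not differ from MT-ND1 beyond the spread of the libraries. It stood at 1.77% and 4.00% of MT-ND1 in unlabelled and at 2.15% and 2.24% in labelled libraries, with a 0.824-fold difference that overlapped. Relative to MT-TQ, with which it shares 3 bases, it stood at 68.4% and 83.3% in unlabelled and 88.0% and 85.3% in labelled libraries. MT-TQ itself rose by a log2 fold change of 1.91 ± 0.27 (SE, edgeR adjusted p 0.00814), and without strand the strand of origin of the fragments in either gene is not known.

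MT-TM kept close to the mRNA that follows it. It stood at 1.95% and 1.66% of the density of MT-ND2 in unlabelled and at 1.65% and 1.80% in labelled libraries, a 0.959-fold difference within the spread (log2 difference of -0.06). From the summed counts that ratio was 0.965 with a 95% interval of 0.783 to 1.19. Relative to MT-ND1, which lies ahead of it, MT-TM was lower in the labelled libraries, at 2.05% and 2.06% against 3.80% and 3.24%, a 0.585-fold difference without overlap. MT-ND1 had a larger log2 fold change than MT-ND2, 2.42 against 1.70.

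MT-TW was higher in labelled libraries relative to all 3 of its neighbours. It stood at 0.287% and 0.331% of MT-ND2 in unlabelled and at 0.989% and 0.895% in labelled libraries, a 3.05-fold difference many times the spread (log2 values of -8.34 ± 0.15 and -6.73 ± 0.10, SD, n = 2). From the summed counts the ratio was 3.19 with a 95% interval of 1.98 to 5.16. Relative to MT-TA, the alanine tRNA of the minus strand 7 bases on, the values were 24.4% and 12.4% against 68.9% and 43.2%, a 3.13-fold difference. Relative to MT-CO1 they were 0.152% and 0.187% against 0.389% and 0.355%, a 2.20-fold difference. None of these pairs overlapped between the groups, and 18 unlabelled fragments stand behind all of them.

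**Figure D3:**
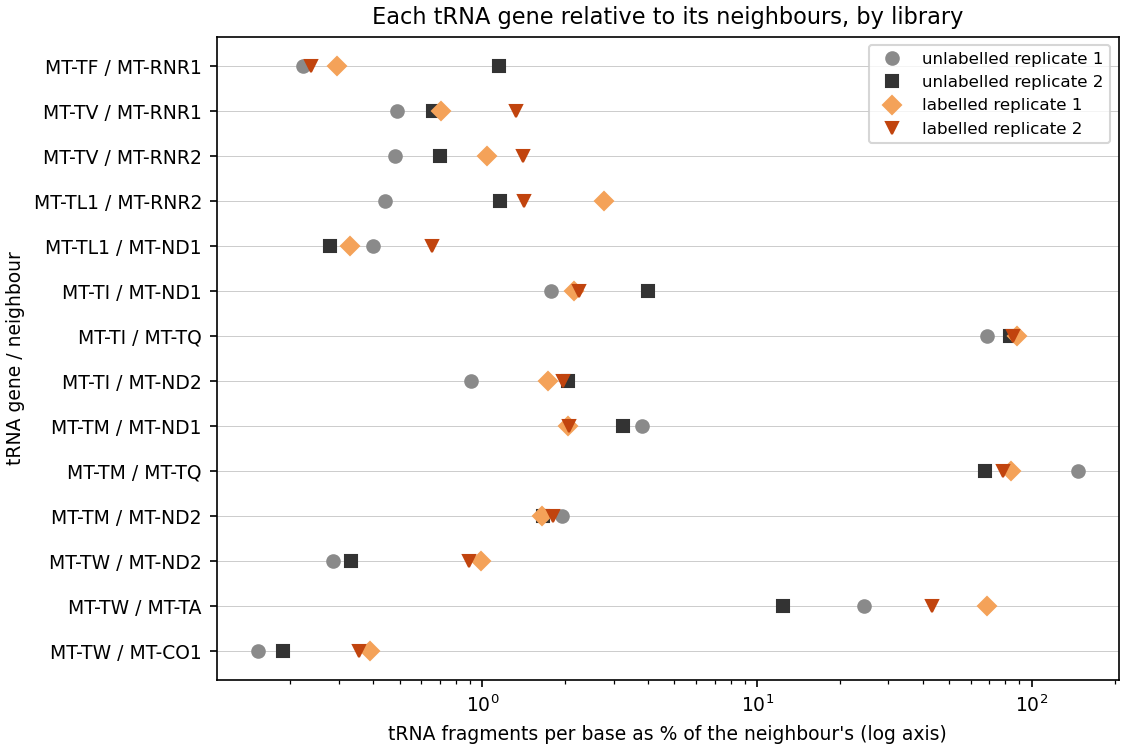
Fragments per base of each tRNA gene as a percentage of those of its neighbour (log axis), 1 point per library. For MT-TW the labelled points lie to the right of the unlabelled ones against all 3 neighbours, and for MT-TM against MT-ND2 the 4 points lie between 1.65% and 1.95%.

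Against all 13 mitochondrial mRNAs summed, the same 6 genes differed in direction. The labelled libraries were higher for MT-TW (2.59-fold) and MT-TL1 (1.93-fold) and lower for MT-TM (0.814-fold) and MT-TF (0.447-fold), each without overlap, at an exact permutation p of 0.333 (0.500 adjusted over the 6 genes). From summed counts the 95% intervals for MT-TM (0.816, 0.663 to 1.01) and MT-TF (0.569, 0.239 to 1.35) covered 1, while those for MT-TW (2.703, 1.67 to 4.37) and MT-TL1 (2.31, 1.24 to 4.28) did not. For MT-TF the log2 difference ran from -1.79 without labelled replicate 2 to -0.53 without labelled replicate 1, and for MT-TL1 the groups overlapped when 2 was added to each count (log2 0.66). For MT-TI (1.15-fold) and MT-TV (1.45-fold) the groups overlapped. Against the other 16 mitochondrial tRNA genes, a comparison added after the data were seen, MT-TW was 2.31-fold higher and MT-TF 0.400-fold, both without overlap (exact permutation p = 0.333, 0.8 adjusted over the 6 genes), and the other 4 genes overlapped. The summed-count ratio was 2.37 (95% interval 1.47 to 3.83) for MT-TW and 0.499 (0.210 to 1.19) for MT-TF, which covers 1 and rests on 7 unlabelled and 19 labelled fragments.

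Among the other 16 mitochondrial tRNA genes, all tested, 15 rose (10 of 16 with DESeq2) and MT-TA missed the edgeR threshold (log2 fold change 1.63 ± 0.34, adjusted p 0.103). Their log2 fold changes ran from 1.63 to 2.82 with a median of 2.03, while the median over all genes tested was -0.01. The highest of them was MT-TT, the threonine tRNA, which is also scarce at 127 CPM per kb. MT-TW and MT-TL1 lay above this range, MT-TI close to the median and MT-TM near the lower end. MT-TW and MT-TL1 were tested only because of their labelled levels, so their place above the range is no support for a larger rise. MT-TL1 lay below MT-TT, and so inside the range, without labelled replicate 2 (2.31 against 2.66) and without unlabelled replicate 2 (2.9997 against 3.34). Over the 20 tested genes Spearman's rho between level per length and log2 fold change was -0.17, as a description.

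**Figure D4:**
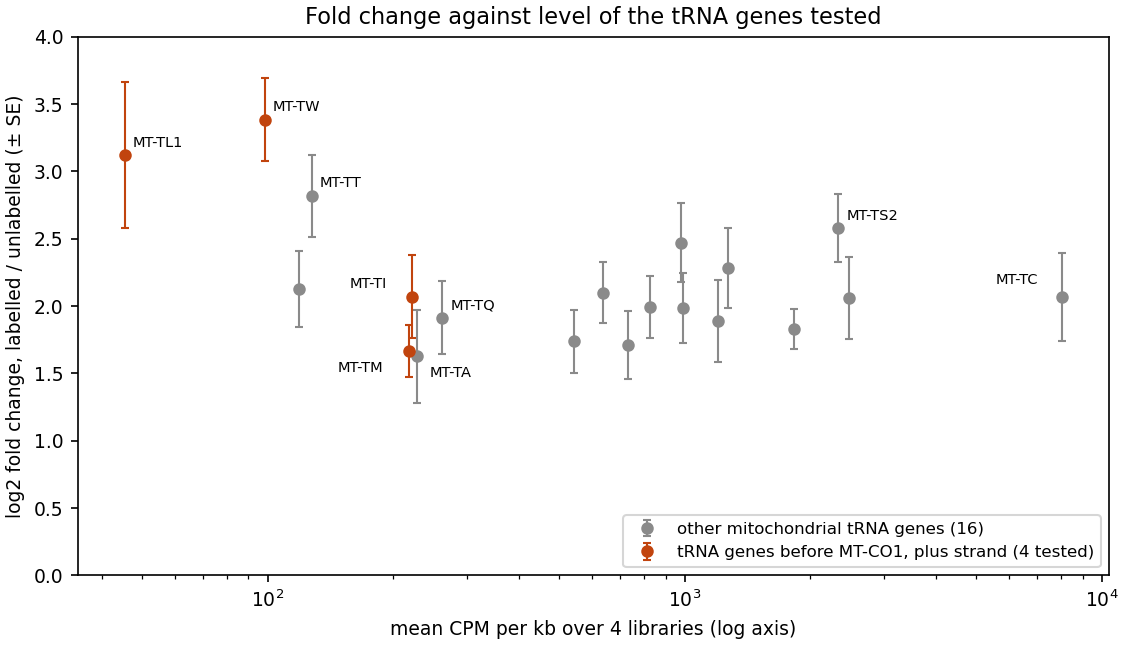
Log2 fold change with its SE (edgeR) against mean CPM per kb over the 4 libraries (log axis) for the 20 mitochondrial tRNA genes tested. MT-TW at 3.38 and MT-TL1 at 3.12 are the highest points and the 2 with the lowest level, and MT-TI and MT-TM lie among the other 16 genes. MT-TW and MT-TL1 entered the test through their labelled level.

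The genes whose profile over the 4 libraries came closest to the mean of the 4 tested tRNA genes were ranked by the root mean square difference of centred log2 CPM. The closest of all genes tested was MT-ND1, the mRNA between MT-TL1 and MT-TI, at 0.0837. It was followed by ENSG00000290578, an unnamed gene on chromosome 1, at 0.130 and by MTCO1P12, a nuclear pseudogene copy of MT-CO1, at 0.162. Reads of such a copy and of the mitochondrial gene cannot be assigned with certainty. The mean profile stood at -1.37 and -1.01 without labelling and at 0.94 and 1.44 with it. MT-TL1 and MT-TW, which are part of this mean, entered the test through their labelled level, so the ranking is only a description. Taken singly, none of the 4 tRNA genes had MT-ND1 as its closest gene. It was at rank 3 for MT-TL1 (0.401) and MT-TW (0.381), and not among the 3 closest to MT-TI or MT-TM.

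For nuclear mRNAs of the enzymes that make and charge these tRNAs no change passed the test. Of the 37 genes listed, all were tested and 0 passed edgeR or DESeq2 in either direction. At an unadjusted edgeR p under 0.05 were 3 of the 37, beside 2191 of all 18973 genes tested. The aminoacyl-tRNA synthetases that attach the 6 amino acids in mitochondria had log2 fold changes of -0.19 for FARS2 (phenylalanine), -0.60 for VARS2 (valine), -0.06 for LARS2 (leucine), 0.27 for IARS2 (isoleucine), -0.10 for MARS2 (methionine) and 0.12 for WARS2 (tryptophan). MTFMT, which formylates the initiator methionyl-tRNA, had 0.44 ± 0.17 (SE, edgeR adjusted p 0.371), at 13.1 and 12.2 against 16.4 and 18.0 CPM. The 7 genes of this list had a median of -0.06.

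Of the 5 end-processing genes the median was 0.02. TRMT10C and PRORP, subunits of mitochondrial RNase P, were at 0.17 and -0.10, and ELAC2 was at 0.05 with 110 and 87.1 against 103 and 101 CPM. The 18 genes of base modification had a median of 0.08, with ALKBH1 at 0.35, YRDC at 0.30 and TRMU, which thiolates the wobble uridine of some mitochondrial tRNAs, at -0.25. The 7 genes for transcription and replication of the mitochondrial chromosome had a median of 0.18, with the helicase TWNK at 0.50 ± 0.16 (edgeR adjusted p 0.303), POLRMT, the mitochondrial RNA polymerase, at 0.24 and MGME1 at 0.22. Scaling by library size alone moved the median of all genes to -0.37. With it 3 of the 37 genes passed as lower, beside 2675 of all 18973 genes tested. Without unlabelled replicate 1 some of the 37 passed as higher, in a fit that called far more of all genes higher than the main fit did.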

How the data were processed

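The values deposited by the authors are raw fragment counts, 1 row for each gene. Per the file headers the authors counted read pairs with featureCounts 1.6.4 over GENCODE 44 exons, with both ends mapped, chimeric pairs left out, and no strand, multi-mapping or overlap option. Gene lengths in bases are those of the deposited table, another unit than counts. Per the submitters' processing notes the aligner was STAR 2.7.9a, the build GRCh38, and DESeq2 1.42.0 is also named; whether duplicates were removed is not stated. Ribosomal RNA had been depleted, per the labels' protocols.

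All 62700 identifiers matched a symbol. All 37 mitochondrial genes had the same coordinates in GENCODE 29, the source of the sequences. Counts were tested in 1 fit over the 4 libraries with edgeR 4.0.16 in R 4.3.3 (filterByExpr, TMM, glmQLFit, glmQLFTest), and p-values were adjusted after Benjamini-Hochberg over all 18973 genes that passed the filter (threshold 0.05). SEs were obtained as |log2 fold change| over the root of F. Ratios and exact tests used Python 3.11.15, NumPy 2.4.6, pandas 2.3.3 and SciPy 1.17.1, and plots matplotlib 3.10.9. The fit was tested on simulated data. The 6 genes and the lists were chosen with earlier results of these data known. Named were the 6 genes, their neighbours, the 3 genes of most similar profile, and from each nuclear list the 3 genes with the smallest p, or all 7 for charging. A few other mitochondrial tRNA genes were named after their values were seen. Alternatives covered scaling, filter, tool, added count, a replicate block and left-out libraries. The summed level of the blood cell markers is not reported here.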

Additional observations from a re-analysis of the deposited data

How the results depend on the processing

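MT-TI and MT-TM stayed higher in labelled libraries with each library left out, and past the threshold under every scaling, filter, tool and block run. MT-TW and MT-TL1 did so too, but both entered the main test through their labelled level, so their repeated calls are no support for a rise. With 1 library left out the log2 fold change of MT-TL1 ran from 2.31 to 3.63, and its call was lost without labelled replicate 2. The count of these genes called differed between the fits with 1 library left out. The share of all genes called differed too, so these counts are not compared. Such a fit leaves 1 library in a group, which is assumed to vary like the other group. The difference of the 6 genes was 35.3 to 52.2 per 1000000 assigned with 1 library left out. Per 1000000 mitochondrial fragments, a different base, it was 27.9 over all libraries, between means of 185 and 213. There the groups overlapped (exact permutation p = 0.667).

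Over all genes, the 51 higher and 3 lower became 52 and 5 with RLE factors, 52 and 5 with TMM factors from nuclear genes, 69 and 2675 with library size alone, 183 and 119 without a filter, 64 and 12 with DESeq2, and 49 to 2440 higher and 9 to 1545 lower with 1 library left out (2440 and 1545 without unlabelled replicate 1, 419 and 518 without unlabelled replicate 2). Of the 37 nuclear genes 3 were lower with library size alone, and 0 to 8 higher with 1 library left out. The upper end of that range came without unlabelled replicate 1, where 2440 of all 20969 genes in the fit were called higher. That fit leaves 1 library in a group, so no conclusion on the 37 genes is drawn from it. The titles number the libraries in both groups without stating a pairing, and same-numbered libraries did not deviate together (correlation -0.07 over 18973 genes). With the replicate block 140 genes were higher and 96 lower, against 51 and 3 in the main fit, and MT-TI and MT-TM kept their calls. MT-TL1 and MT-TW kept theirs too, but they entered the test through their labelled level, so this is no support for a rise.

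Log2 ratio differences that changed sign with 1 library left out ranged from -2.12 to 0.25 for MT-TF to MT-RNR1, -0.0238 to 0.97 for MT-TL1 to MT-ND1, -0.87 to 0.31 for MT-TI to MT-ND1, -0.15 to 1.02 for MT-TI to MT-ND2, -0.86 to 0.27 for MT-TM to MT-TQ, -0.18 to 0.0565 for MT-TM to MT-ND2, and, against the 13 mRNAs, -0.70 to 1.78 for MT-TV and -0.39 to 0.79 for MT-TI. Against the 16 other tRNA genes they were -0.68 to 1.43 for MT-TV, -0.19 to 0.26 for MT-TI (-0.00843 with 2 added to each count) and -0.94 to 0.0209 for MT-TM. The cause was not tested. For MT-TW the ranges were 1.51 to 1.71 against MT-ND2 and 1.16 to 2.13 against MT-TA. Depth limits MT-TF most: its unfiltered edgeR log2 fold change was 1.12 ± 0.72 (adjusted p 0.801), and that of MT-TV was 3.04 unfiltered and 3.01 with the CPM filter (adjusted p 1.11e-08 and 0.261).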
